A study of Mus musculus with 4 samples.

Results

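The 9 genes described here encode structural and adhesion proteins of the myelin sheath: Mbp, Mog, Mag, Mobp, Mal, Cnp, Cldn11, Opalin and Ermn. They were chosen by symbol, with earlier results of these data known, and all 9 were found among the 19465 features that the probe panel measured. Myelin is the stack of membrane that oligodendrocytes wrap around axons. Its compact layers are held together from the cytoplasmic side by myelin basic protein, while adhesion proteins sit at the inner and outer edges of the sheath. In the rodent brain, myelin is laid down after birth, earliest and most densely in fibre tracts and later and more sparsely in the upper layers of the cortex.

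The measurements are Visium spatial transcriptomes of formalin-fixed, paraffin-embedded coronal brain sections from wild-type C57BL/6J offspring at postnatal day 21. The methods give the offspring as male. Dams were 8 weeks old when they were put on a diet with 2 mg/kg folic acid (MF) or 20 mg/kg folic acid (HF). They ate it from 2 weeks before mating until the end of lactation, so that all offspring were exposed to folic acid through the dam and the diets differ in its amount. Each diet is represented by 2 sections, described as biological replicates. The labels do not say whether the sections of a diet came from different litters, and the p-values then measure only the spread between these sections. The purpose of the comparison was to ask which genes differ in the brains of offspring of dams given excess folic acid. A spot of the array holds several cells, so that fewer oligodendrocytes and less message per oligodendrocyte cannot be told apart in any of the values below.

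The retained spots held 34982061 to 90096877 UMIs (unique molecular identifiers, each a captured probe molecule) per section, in 3197 to 3598 spots. MF replicate 1 was the deepest section, with a median of 23544 UMIs per spot against 9286 to 12075 in the other sections. Areas were rebuilt from 23 clusters of spots, named from marker lists that held none of the 9 genes, which were also left out of the clustering. White matter held 320, 317, 234 and 347 spots in MF replicates 1 and 2 and HF replicates 1 and 2, the order in which section values are given throughout. Its cluster was led by other oligodendrocyte genes such as Gsn, Ugt8a and Fa2h. No part of the section was free of the 9 genes, and the white matter spots held 27.9%, 29.3%, 20.7% and 32.5% of their UMIs.

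All 9 genes were highest in white matter. Levels are given in CPM, the UMIs of a gene per 1000000 UMIs of the area in a section, and since probes differ between genes, levels are compared between areas and not between genes. Together the 9 genes reached 60470 ± 6095 CPM (SD, n = 4) in white matter. They took 21541 ± 1904 CPM in striatum and 18613 ± 2128 CPM in thalamus. In hypothalamus they took 14979 ± 928 CPM, in hippocampus 9608 ± 1926 CPM and in cortex 8279 ± 999 CPM. White matter lay above every other area in all 4 sections with no overlap. Thalamus was below striatum in 4 of 4 sections, although the ranges of both areas overlapped over sections. The small habenula cluster lay between thalamus and hypothalamus, with ranges that overlapped both. Hypothalamus, meninges and ependyma had ranges that overlapped over sections, as did hippocampus, choroid plexus and cortex. Because the areas were defined from the same spots, these levels are a description and were not tested.

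**Figure D1:**
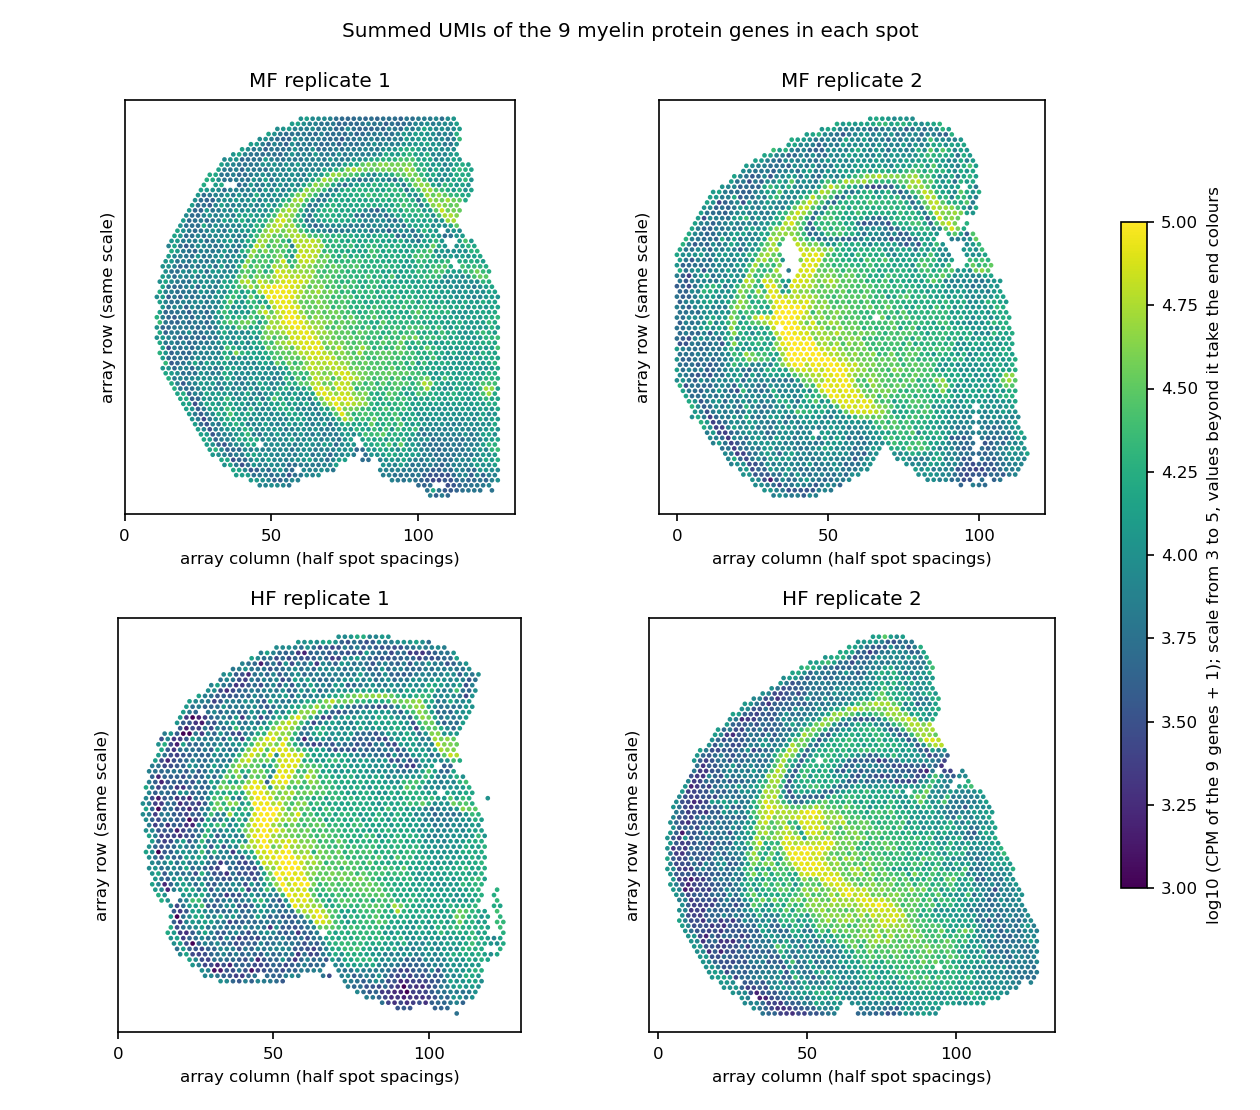
Each point is a spot, drawn at its array position in the 4 sections, and its colour is log10 of the summed CPM of the 9 genes plus 1. The bright band of fibre tracts runs through each section, and the outer cortex of both HF sections is darker than that of the MF sections.

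Within the cortex the sum of the 9 genes was higher in deeper layers. Within the hippocampus the CPM of the genes was lowest where neuronal cell bodies are packed. The 9 genes together took 4849 ± 1353 CPM (SD, n = 4) in layers 2 to 3, 6095 ± 1284 CPM in layer 4, 8193 ± 1281 CPM in layer 5 and 9301 ± 1355 CPM in layer 6. This order of the sum was seen in all 4 sections, with no overlap between layers 4 and 5 and with overlap between the other neighbours. Layers 5 and 6 were not ordered in every gene. Mean CPM in layers 5 and 6 was 464 and 452 for Mag, 400 and 394 for Cldn11 and 119 and 112 for Opalin. In each of these 3 genes layer 6 was below layer 5 in 2 of 4 sections. In the hippocampus the neuropil took 15404 ± 2550 CPM, above all cell body fields with no overlap. The fields CA2-3 at 6728 ± 1253 CPM, CA1 at 5665 ± 1504 CPM and the dentate gyrus at 4879 ± 1219 CPM had ranges that overlapped over sections. CA1 was below CA2-3, and the dentate gyrus below CA1, in 3 of 4 sections each. Spots of the cell body fields held more UMIs in every section, with medians of 18675 to 51540 against 8776 to 19225 in the neuropil. A lower CPM there therefore need not mean fewer UMIs of the 9 genes per spot, which was not tested. Summed levels in white matter were 7.36 ± 0.88 times those of the cortex and 6.48 ± 1.40 times those of the hippocampus. They were 4.06 ± 0.57 times those of the hypothalamus, 3.27 ± 0.45 times those of the thalamus and 2.82 ± 0.32 times those of the striatum. The hippocampal ratio rested on pooled UMIs and was 5.07 when every spot was given equal weight.

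**Figure D2:**
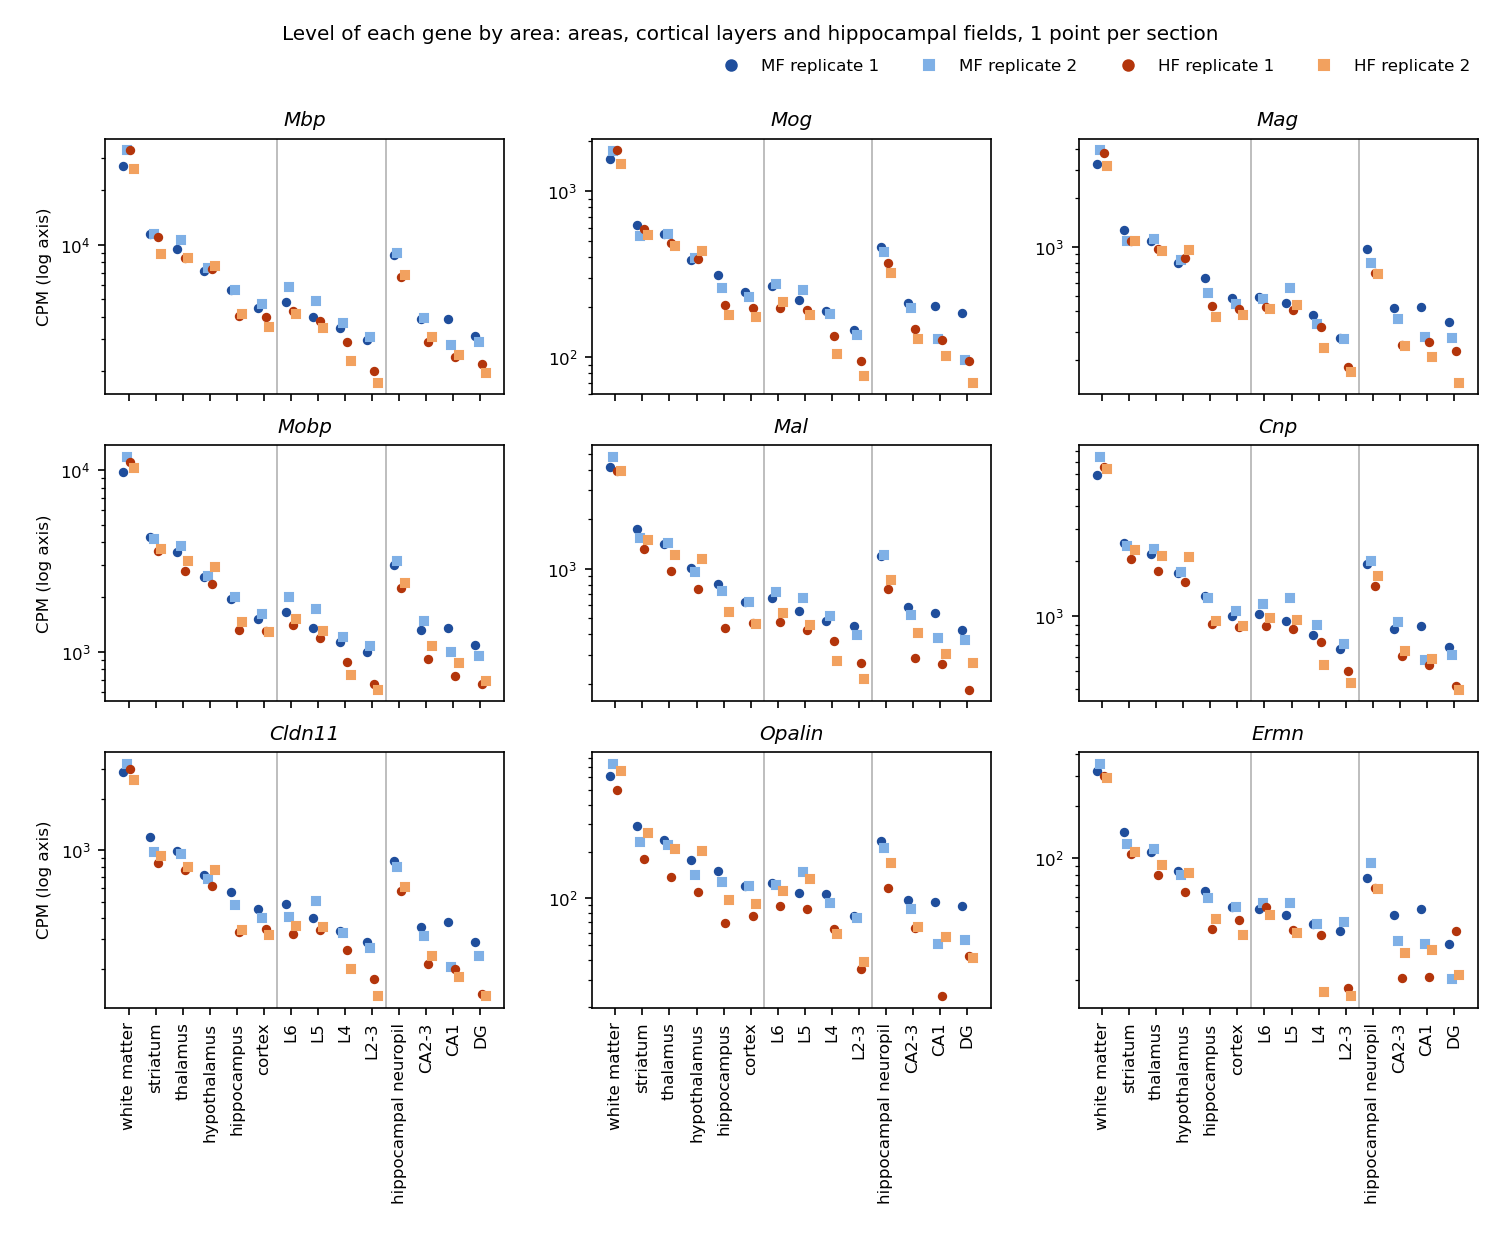
Each panel is 1 gene, with its CPM on a log axis in 14 areas, 1 point for each section. Grey lines set apart the main areas, the cortical layers and the hippocampal fields. All 9 genes fall from white matter to cortex and from layer 6 to layers 2 to 3, and in layers 2 to 3 both HF points lie below both MF points for every gene.

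Mbp encodes myelin basic protein, which compacts the sheath. It is on chromosome 18 (82475146 to 82585637, plus strand, ENSMUSG00000041607; positions are those of GRCm38). Its level was 27227, 33239, 33203 and 26225 CPM in white matter and 2997, 3105, 2002 and 1731 CPM in layers 2 to 3. White matter levels of both diets overlapped, whereas those of layers 2 to 3 did not. Mbp made up nearly the same part of the summed UMIs of the 9 genes in every area, between 49.3% in layer 5 and 52.4% in the dentate gyrus.

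Mobp encodes myelin-associated oligodendrocytic basic protein, a further protein of compact myelin, and lies on chromosome 9 (120149707 to 120181484, plus strand, ENSMUSG00000032517). It reached 9689, 11760, 11002 and 10242 CPM in white matter, with the MF sections at both ends of the range. In layers 2 to 3 it was at 999, 1082, 669 and 620 CPM, and both HF sections were lowest. Its part of the summed UMIs ran from 16.2% in layer 4 to 18.3% in striatum.

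Mal, which encodes a tetraspan raft protein that sorts myelin membrane, lies on chromosome 2 (127633226 to 127656695, minus strand, ENSMUSG00000027375). Its white matter levels were 4154, 4789, 3955 and 3964 CPM, with both HF sections just below both MF sections. Cldn11 on chromosome 3 (31149920 to 31164324, plus strand, ENSMUSG00000037625) encodes claudin 11, the tight junction protein of myelin. Its white matter levels were 2879, 3209, 2986 and 2575 CPM and overlapped between diets. Mal took 6.30% to 7.08% and Cldn11 4.07% to 4.86% of the summed UMIs over the 14 areas.

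Cnp encodes the phosphodiesterase of non-compact myelin that holds cytoplasmic channels open, and lies on chromosome 11 (100574904 to 100591729, plus strand, ENSMUSG00000006782). Its white matter levels were 5955, 7429, 6528 and 6422 CPM, and both HF sections fell between the MF sections. Mag, on chromosome 7 (30899176 to 30914873, minus strand, ENSMUSG00000036634), encodes the adhesion protein at the inner edge of the sheath that faces the axon. Mag was at 3252, 3950, 3781 and 3143 CPM in white matter. Of the 9 genes it had the highest mean ratio of white matter over cortex, 8.27 ± 1.09 (SD, n = 4), and it made up 5.84% of the summed UMIs in white matter and 4.66% in layers 2 to 3.

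Mog encodes the immunoglobulin-like glycoprotein on the outermost myelin surface and lies on chromosome 17 (37010743 to 37023398, minus strand, ENSMUSG00000076439). It was at 1577, 1757, 1771 and 1455 CPM in white matter, with the diets overlapping. Opalin, an oligodendrocyte-specific membrane glycoprotein of the paranodal loops, lies on chromosome 19 (41061710 to 41077113, minus strand, ENSMUSG00000050121). Its white matter levels were 615, 732, 500 and 656 CPM, lowest in HF replicate 1. The share of Opalin in the summed UMIs varied most over areas, from 0.958% in CA1 to 1.45% in layer 5. Ermn encodes ermin, a cytoskeletal protein of late myelinating oligodendrocytes, and lies on chromosome 2 (58045113 to 58052864, minus strand, ENSMUSG00000026830). Its white matter levels were 317, 350, 299 and 291 CPM, with both HF sections below both MF sections.

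Over single spots the 9 genes followed one another, as far as the depth of each gene allowed. Across spots the mean Pearson correlation over the 4 sections was 0.882 between Mbp and Mobp and 0.805 between Mbp and Cnp. It was lowest, at 0.342, between the sparsely counted Opalin and Ermn. Spots share a section and their depth, so these values are descriptions. Among 9867 features, those outside the 9 genes whose level followed their sum closely included Tspan2 (r = 0.672), an oligodendrocyte tetraspanin. It was followed by Trf (r = 0.598), which encodes transferrin, by Fth1 (r = 0.595), the ferritin heavy chain, and by Fa2h (r = 0.585), the hydroxylase of myelin galactolipids. The deposited spatial enrichment scores (Moran's I, a measure of how far neighbouring spots share a level) placed Mbp between ranks 2 and 5 of each section, with a mean of 0.759. Mobp followed with a mean of 0.718 and ranks of 4 to 9. Ermn had the lowest mean, 0.316, with ranks of 201 to 419.

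Since the 9 genes followed one another over areas, their promoters were searched for letters of oligodendrocyte transcription factors. Those printed are the promoters that held Myrf letters and that of Mobp, which held the most matches. The 250 bases before the RefSeq start nearest the gene start given above were read on GRCm38.p6 for 8 of the 9 genes. Mbp is named only. For Mag, Cnp and Mobp this RefSeq start lies within the gene positions given above. Both strands were searched for CTGGCAC and CTGGTAC, letters bound by the myelin regulator Myrf, and for ACAAAG and ACAATG, letters bound by Sox factors such as Sox10. The letters CTGGCAC stood in 4.19% and CTGGTAC in 1.83% of 32851 promoters of this length. The letters ACAAAG stood in 16.5% and ACAATG in 10.7% of them. Among the 9 genes, CTGGCAC was found at Mag and Cnp and CTGGTAC at Mog. ACAAAG was found at Mag, Mobp, Cnp and Opalin, ACAATG at Ermn, and none of these letters at Mal or Cldn11. A match describes the letters and is not a measured site. Capitals mark the matches on either strand in the following promoters, which lie at chr17:37023399-37023648 (minus strand) for Mog, chr7:30914864-30915113 (minus) for Mag, chr11:100574689-100574938 (plus) for Cnp and chr9:120149492-120149741 (plus) for Mobp.
Mog: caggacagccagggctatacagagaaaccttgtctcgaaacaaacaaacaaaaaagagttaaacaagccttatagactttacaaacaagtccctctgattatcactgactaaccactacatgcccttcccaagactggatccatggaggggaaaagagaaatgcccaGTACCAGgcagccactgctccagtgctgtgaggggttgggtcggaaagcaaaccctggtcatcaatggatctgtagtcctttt
Mag: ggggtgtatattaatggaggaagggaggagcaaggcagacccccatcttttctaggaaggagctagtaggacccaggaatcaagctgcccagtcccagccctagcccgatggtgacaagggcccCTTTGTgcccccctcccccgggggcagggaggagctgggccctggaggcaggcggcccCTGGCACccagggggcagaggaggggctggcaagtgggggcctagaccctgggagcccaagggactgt
Cnp: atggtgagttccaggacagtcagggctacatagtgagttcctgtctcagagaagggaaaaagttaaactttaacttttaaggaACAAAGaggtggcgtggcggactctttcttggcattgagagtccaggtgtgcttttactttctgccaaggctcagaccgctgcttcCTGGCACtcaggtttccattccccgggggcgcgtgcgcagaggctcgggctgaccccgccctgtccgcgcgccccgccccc
Mobp: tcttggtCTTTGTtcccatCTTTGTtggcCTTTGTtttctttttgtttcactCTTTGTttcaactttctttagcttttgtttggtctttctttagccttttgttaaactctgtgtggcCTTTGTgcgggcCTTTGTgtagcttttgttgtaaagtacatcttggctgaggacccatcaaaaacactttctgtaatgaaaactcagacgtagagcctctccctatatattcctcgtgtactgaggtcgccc
In Mog the Myrf match began 83 bases before the RefSeq start, in Mag 68 bases and in Cnp 81 bases before it. The promoter of Mobp held 6 matches to ACAAAG, and it was the only 1 of the 32851 promoters with at least 6.

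Over whole sections, no member passed the test between diets. A gene was called at an adjusted p under 0.05 and a change of at least 1.2-fold, in edgeR's quasi-likelihood test on the UMIs summed over an area of each section, with Benjamini-Hochberg adjustment over all features. Mbp was at 8903, 9640, 7903 and 8061 CPM in whole sections, and both HF sections lay below both MF sections. Its log2 fold change, HF over MF, was -0.22 (SE 0.056, adjusted p = 0.696). The 9 genes ran from -0.18 to -0.37 with a median of -0.23, beside a median of 0.00 over all 14971 features. HF lay below MF without overlap in 8 of the 9 genes, all but Cnp, as in 17.9% of all features. None of the 9 was called, as in 0% of all features, but 6 of the 9 and 1020 of all features had an unadjusted p under 0.05. DESeq2 called none of the 9 either. With 2 sections against 2, an exact two-sided permutation test of a single value cannot go below 0.333. Leaving out single sections moved the median of the 9 between -0.37 and -0.15, and members passed only in the fit without HF replicate 2. Choroid plexus markers moved with the diets in whole sections, where 11 of 11 were higher in HF with a median of 0.54. Of these, 8 had an unadjusted p under 0.05 and edgeR called none. Their summed level was 2472, 2325, 3465 and 3832 CPM. Ependyma spots made up 1.08%, 2.44%, 5.66% and 4.37% of the section, but their larger cluster also had Dlk1, a hypothalamus marker, among its leading genes. Other clusterings gave ependyma 36, 39, 38 and 32 spots (without the wider myelin lists) and 25, 30, 30 and 31 spots (resolution 2). The larger ependyma share of the HF sections therefore rested on the clustering. The part of these markers and spots in the result was not tested.

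In white matter, where all 9 genes were highest, the diets overlapped for most of them. The values by section given above for each gene put HF below MF without overlap in 2 of 9 genes, Mal and Ermn, as in 15.3% of all features. Log2 fold changes ran from -0.03 for Mobp to -0.23 for Opalin (SE 0.158, adjusted p = 0.956), with a median of -0.07 beside 0.00 over all features. No member was called in white matter, where 0% of 12539 features were called as lower and 1 feature as higher, and DESeq2 called none of the 9. None of the 9 genes, and 604 of all features, had an unadjusted p under 0.05. Leaving out single sections moved the median between -0.23 and 0.04, so that its sign rested on MF replicate 2.

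In layers 2 to 3 of the cortex, far from the fibre tracts, all 9 genes were lower in HF. All 9 were called there, against 0.256% of 10954 features called as lower. HF lay below MF without overlap in all 9, as in 19.9% of all features. Mbp, at the levels given above, fell with a log2 fold change of -0.70 (SE 0.088, adjusted p = 0.000158), and Mobp fell by 0.68 (adjusted p = 0.000419). Mal was at 446, 394, 268 and 214 CPM and fell by 0.82 on the log2 scale (SE 0.116, adjusted p = 0.000427). Both HF sections of Mal lay well below both MF sections.

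Ermn and Opalin showed the largest fold changes of the 9 genes in these layers. Ermn was at 38.1, 42.8, 18.0 and 16 CPM and fell by 1.23 on the log2 scale (SE 0.226, adjusted p = 0.00642). Its HF values rested on 19 and 31 UMIs, and its MF values on 133 and 66. Opalin was at 77.1, 74.5, 35.0 and 39.2 CPM and fell by 1.0 (SE 0.165, adjusted p = 0.00232). Both HF sections of either gene lay close together and well below both MF sections.

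Adhesion and junction genes moved likewise in layers 2 to 3. Cldn11 was at 290, 266, 175 and 140 CPM and fell by 0.84 on the log2 scale (SE 0.120, adjusted p = 0.000456). Mog was at 145, 137, 94.6 and 76.9 CPM and fell by 0.74 (SE 0.136, adjusted p = 0.00642). Mag was at 275, 271, 182 and 169 CPM and fell by 0.63 (SE 0.110, adjusted p = 0.00351). In each of them the MF sections were nearly equal and the HF sections formed a lower pair. Cnp was the least changed, at 667, 706, 502 and 433 CPM, and fell by 0.55 (SE 0.101, adjusted p = 0.00642).

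The median of the 9 log2 fold changes in layers 2 to 3 was -0.74, beside 0.00 over all features. Leaving out single sections moved the median of the 9 between -0.86 and -0.63. Fewer members passed without HF replicate 2 or without MF replicate 1. The spots of these layers lay a median of 12, 7, 10 and 11 array steps from the nearest white matter spot, and their median depth was 23452, 11172, 8187 and 12873 UMIs. After every spot was thinned to 5000 UMIs, all 9 were still called, whereas DESeq2 called 6 of the 9.

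**Figure D3:**
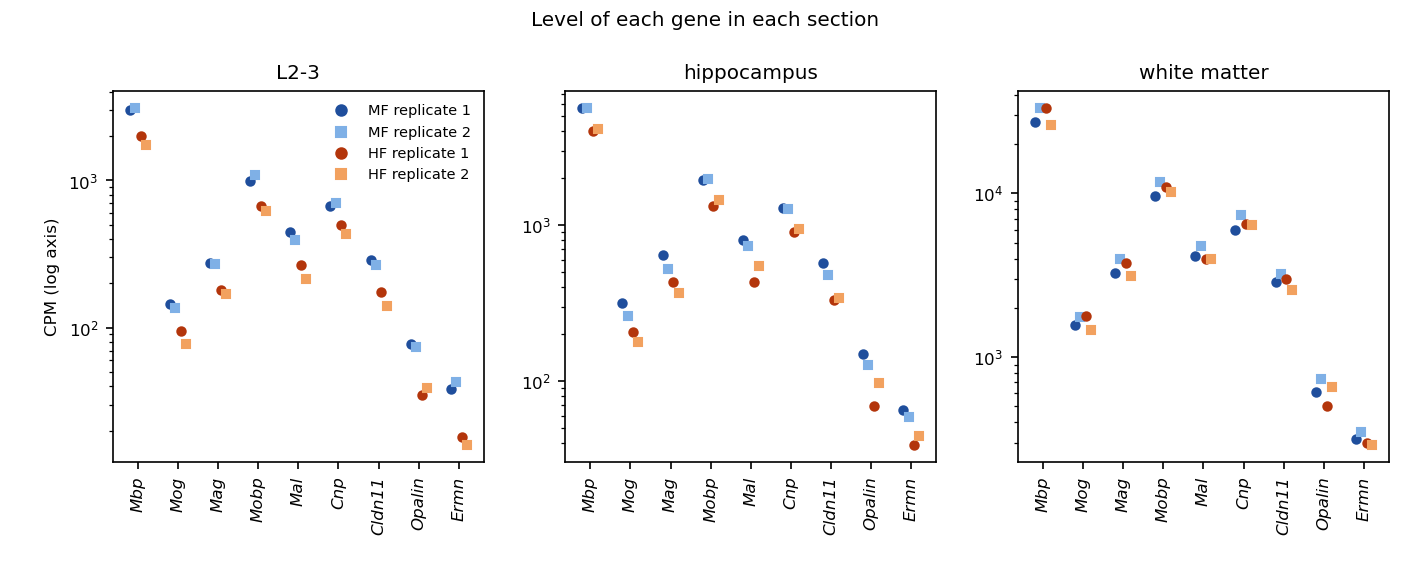
CPM of each gene on a log axis in layers 2 to 3, hippocampus and white matter, 1 point for each of the 4 sections. Both HF points lie below both MF points for all 9 genes in layers 2 to 3 and hippocampus, and the diets overlap for most genes in white matter.

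In the hippocampus 7 of the 9 genes were called, all lower in HF, against 0.215% of 12548 features, and HF lay below MF without overlap in all 9, as in 20.6% of all features. Mbp was at 5653, 5645, 4056 and 4121 CPM, with both sections of each diet nearly equal. It fell by 0.46 on the log2 scale (SE 0.072, adjusted p = 0.0189). Cldn11 was at 570, 476, 331 and 340 CPM and fell by 0.64 (SE 0.097, adjusted p = 0.0189). Mobp was at 1953, 1996, 1323 and 1454 CPM and fell by 0.50 (SE 0.081, adjusted p = 0.0203). In each of these genes the higher HF section stayed below the lower MF section.

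Of the remaining genes of the hippocampus, Mal was at 806, 733, 435 and 549 CPM and fell by 0.64 (adjusted p = 0.0225). Cnp was at 1295, 1265, 907 and 943 CPM and fell by 0.46 (adjusted p = 0.0245). Mog was at 315, 261, 206 and 179 CPM and fell by 0.59 (adjusted p = 0.0338). In these genes too both HF sections were lowest. Opalin was at 150, 127, 69.0 and 97.9 CPM and fell by 0.71 (SE 0.137, adjusted p = 0.0453). Mag, at 644, 522, 431 and 370 CPM (log2 fold change -0.54, adjusted p = 0.0524), and Ermn, at 64.8, 58.8, 39.0 and 44.7 CPM (-0.56, adjusted p = 0.0966), did not pass. The median of the 9 genes was -0.56, beside 0.00 over all features. Without MF replicate 1 no member was called, without MF replicate 2, 5 were, and without HF replicate 1 or 2 all 9 were, beside 521 and 152 of all features, with medians of -0.68 to -0.48.

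Within the hippocampus, calls were made in the cell body fields more than in the neuropil. These fields do not cover the hippocampus. A cluster with 59, 89, 58 and 98 of its 290, 270, 229 and 338 spots was left unnamed. That cluster and smaller unnamed ones are in no field. In the dentate gyrus 6 of the 9 genes were called, against 0.199% of features: Mbp, Mag, Mobp, Mal, Cnp and Cldn11. Mbp was at 3146, 2886, 2182 and 1963 CPM there and fell by 0.54 (SE 0.095, adjusted p = 0.00387), with the HF pair lowest. Cldn11 was at 290, 238, 144 and 139 CPM and fell by 0.93 (SE 0.149, adjusted p = 0.00169). Ermn gave 32.2, 20.0, 38.2 and 21.3 CPM from 10 to 37 UMIs a section, so that a difference was not detectable at this depth. In CA2-3 6 genes were called, against 0.24% of features, with all but Mbp, Opalin and Ermn passing. In CA1 Mal and Mobp passed, against 0.0819% of features, and in the neuropil Mal alone passed, against 0.0217% of features. No difference between the fields was tested. Without MF replicate 1 no member was called in the dentate gyrus, CA1 or CA2-3. Without any 1 of the other sections, more members passed in CA1 and fewer in CA2-3. With single sections left out, the median of the 9 ran from -0.86 to -0.21 in CA1 and from -0.61 to -0.47 in CA2-3. In the neuropil the median ran from -0.45 to -0.41 in these fits, and no member passed without MF replicate 2. The fields held 19 to 81 spots a section. DESeq2 called 1 member in the dentate gyrus and none in CA1, CA2-3 or the neuropil. After thinning, 2 were called in the dentate gyrus, 1 in CA2-3 and none by edgeR in CA1 or the neuropil. In CA2-3 without the spots next to white matter edgeR called none, with a median of -0.35.

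In the cortex as a whole 1 gene was called, Mal, against 0.0531% of 13187 features. It was at 628, 625, 468 and 459 CPM and fell by 0.42 (SE 0.074, adjusted p = 0.0440), and both sections of each diet were nearly equal. All 9 genes were lower in HF without overlap, as in 21.2% of all features, with a median log2 fold change of -0.35. Opalin, at 120, 121, 76.5 and 92.5 CPM, came next (-0.49, adjusted p = 0.100). Without either MF section Mal was not called, and without HF replicate 1 or 2, 8 and 4 genes were called, beside 817 and 159 of all features. In layer 4, 6 genes were called, against 0.228% of features. There Mal was at 481, 518, 363 and 274 CPM and fell by 0.64 (SE 0.107, adjusted p = 0.000334), while Mag, Cnp and Ermn did not pass. Leaving out single sections moved the median in layer 4 between -0.72 and -0.35. Fewer members passed without either MF section or without HF replicate 2, and more without HF replicate 1. That last fit leaves HF replicate 2, the lowest section of this layer for all 9 genes, as the lone HF section. DESeq2 called 2 members in layer 4, and thinning left 4. In layers 5 and 6 no member was called, against 0.0478% and 0.0449% of features, with medians of -0.30 and -0.31. With single sections left out, the medians ran from -0.48 to -0.15 in layer 5 and from -0.36 to -0.22 in layer 6. Some members passed in some of these fits.

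In thalamus, hypothalamus and striatum no member was called. In thalamus Mbp was at 9411, 10607, 8448 and 8396 CPM and Mal at 1420, 1430, 976 and 1214 CPM. All 9 genes lay lower in HF without overlap, as in 17.7% of all features, with a median log2 fold change of -0.31. Of the 9, 8 had an unadjusted p under 0.05, as had 941 of 13379 features, of which 0% were called, and DESeq2 called none of the 9. Without HF replicate 2, 6 of the 9 passed in the thalamus beside 1326 of all features, and without HF replicate 1, 2 did beside 1015. In hypothalamus Mbp was at 7170, 7454, 7379 and 7653 CPM with full overlap, and the 9 genes ran from -0.17 to 0.15, with a median of 0.02. None of the 9, and 715 of all features, had an unadjusted p under 0.05, DESeq2 called no member, and 0% of features were called. With other clusterings of the spots the median in hypothalamus was -0.13 (resolution 2) and -0.14 (without the wider myelin lists), and 0 members were called. Without HF replicate 1 or 2, 2 members were called in hypothalamus, beside 958 and 322 of all features, and the median took opposite signs, 0.18 and -0.19. In striatum the median was -0.21, 2 of the 9 and 689 of all features had an unadjusted p under 0.05, 0.0366% of features were called as lower, and DESeq2 called none of the 9. Without HF replicate 1 or HF replicate 2, 1 member was called in striatum, beside 137 and 33 of all features.

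**Figure D4:**
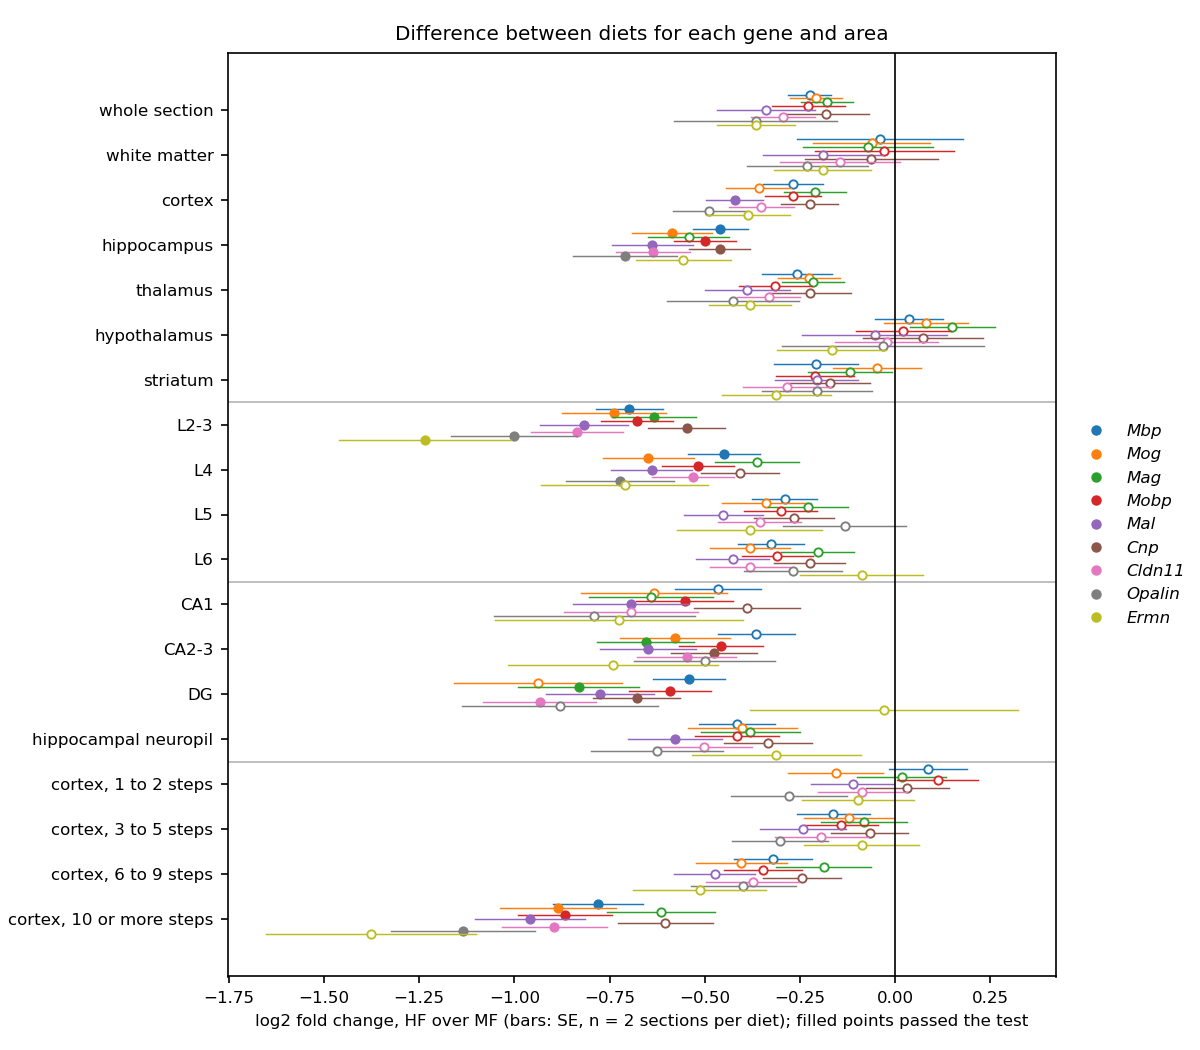
Log2 fold change of each gene, HF over MF, in whole sections, areas, cortical layers, hippocampal fields and cortical bins of distance from white matter, with bars for the SE (n = 2 sections per diet) and filled points for called genes. Points lie near 0 in white matter, hypothalamus and cortex next to white matter, and the points farthest to the left are those of Ermn and Opalin in layers 2 to 3 and at 10 or more steps.

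The cortex was also divided by distance from white matter, counted in steps between neighbouring spots, so that the diets could be compared at matched distance. Matched distance is not matched layer. Layer 4 lay a median of 9, 5, 7 and 9 steps from white matter, nearest in MF replicate 2. A bin can therefore hold layers in unequal parts between sections, and the part of this in the results was not tested. At 1 to 2 steps the 9 genes together took 14628, 13102, 13872 and 14677 CPM, with full overlap. No member was called there, against 0.0265% of features, and the median log2 fold change was -0.09. At 3 to 5 steps none was called, against 0.0253%, with a median of -0.14. Leaving out single sections moved the median between -0.19 and 0.08 at 1 to 2 steps and between -0.24 and 0.01 at 3 to 5 steps, and in both bins its sign turned without MF replicate 1. Without HF replicate 2, 1 member was called at 1 to 2 steps. At 6 to 9 steps none was called, against 0.00845%, with a median of -0.37, although 8 of the 9 had an unadjusted p under 0.05. At 10 or more steps the sum was 6385, 6724, 4001 and 3576 CPM, with both HF sections far below both MF sections. There 6 genes were called, against 0.129% of 10814 features, and HF lay below MF without overlap in all 9, as in 18.6% of all features.

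Mbp at 10 or more steps was at 3192, 3443, 2088 and 1769 CPM and fell by 0.78 (SE 0.119, adjusted p = 0.0104). Mal was at 478, 430, 271 and 209 CPM and fell by 0.96 (SE 0.144, adjusted p = 0.0104). Opalin was at 89.7, 74.1, 34.0 and 41.4 CPM and fell by 1.13 (SE 0.189, adjusted p = 0.0160). Each was lowest in the HF pair, and Mog, Mobp and Cldn11 were called as well. Mag (-0.61, adjusted p = 0.155), Cnp (-0.60, adjusted p = 0.0915) and Ermn (-1.38, adjusted p = 0.0738) did not pass. The bin held 196, 35, 89 and 188 spots, so that MF replicate 2 rests on few spots. Without it 8 genes were called, and 4 were without MF replicate 1, 8 without HF replicate 1 and 5 without HF replicate 2.

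**Figure D5:**
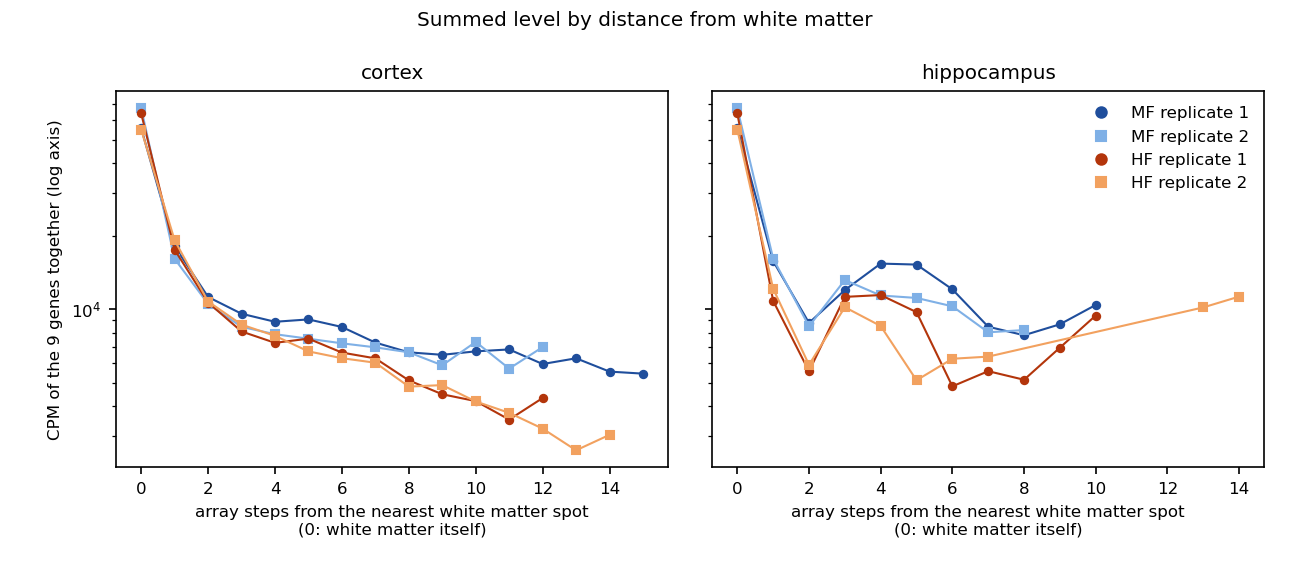
Summed CPM of the 9 genes, on a log axis, at each number of array steps from the nearest white matter spot in cortex and hippocampus, 1 line per section, with white matter itself at 0. In the cortex the 4 lines run together up to 2 steps and the HF lines lie below the MF lines from 8 steps outward. In the hippocampus the lines cross at some distances.

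Whether the difference between diets depended on the distance was tested directly, with each section as a block. The joint test over the 4 bins called 4 members, Mbp, Mobp, Mal and Cldn11, against 0.124% of 12141 features. The single contrast of 10 or more steps against 1 to 2 steps was called as lower in HF for 8 members, against 0.115% of features, while Ermn, at -1.18, did not pass (adjusted p = 0.0698). For Mbp this difference of log2 fold changes was -0.87 (SE 0.099, adjusted p = 2.7e-05). Without HF replicate 2 neither test called a member, and without HF replicate 1 both called fewer. Without MF replicate 2 the joint test called more. Between whole areas no such difference passed. The terms of diet by area called no member over white matter, cortex, hippocampus, thalamus, hypothalamus and striatum, against 0.0289% of 13842 features. For hippocampus against white matter the difference ran from -0.37 to -0.52 over the 9 genes, with adjusted p from 0.492 to 0.914, and 0% of features were called lower. Without HF replicate 1 the area terms called 8 members and 367 of all features, and without HF replicate 2 they called 3 members and 58 features.

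Most genes of a wider myelin list were also lower in HF in hippocampus and upper cortex, and 1, Ptgds, was called as higher in layer 4. This list of 42 genes holds lipid enzymes, connexins, tetraspanins and other sheath genes, none of them among the 9, though it was also drawn up with results of these data known. In hippocampus 41 of 41 tested genes were lower in HF and 8 were called, among them Tspan2, Ugt8a, Fa2h, Pllp, Gsn, Trf and Apod, with a median of -0.41. Ugt8a, an enzyme of galactolipid synthesis, was at 156, 174, 107 and 110 CPM there and fell by 0.59 (SE 0.097, adjusted p = 0.0221), with no overlap. In layers 2 to 3, 37 of 38 were lower and 7 were called, among them Tspan2, Cryab, Gsn, Trf, Gal3st1 and Apod, with a median of -0.60. In layer 4, 36 of 39 were lower and 8 were called as lower, with a median of -0.52. Ptgds, the prostaglandin D synthase that is also made by meninges, was at 67.7, 56.4, 86.8 and 106 CPM there, higher in both HF sections (log2 fold change 0.63, SE 0.144, adjusted p = 0.0253). At 10 or more steps 36 of 38 were lower and the called genes included Tspan2, Gsn, Trf and Apod. In the whole cortex Trf and Apod were called. In white matter 33 of 42 were lower and none was called by edgeR, with 4 at an unadjusted p under 0.05 and a median of -0.12.

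Few regulators and precursor genes of oligodendrocytes passed the test. Of 10 tested transcription factors of the lineage in layers 2 to 3, 9 were lower and 1, Sox10, was called. Sox10, which drives myelin gene transcription, was at 42.1, 38.2, 23.7 and 18.6 CPM there and fell by 0.98 (SE 0.216, adjusted p = 0.0427), with both HF sections lowest, and it was also called in layer 4 (-0.86, adjusted p = 0.0437). In hippocampus 8 of 12 factors were lower and edgeR called none, with 4 at an unadjusted p under 0.05. Among 16 genes of precursors and newly formed oligodendrocytes, 11 were lower in hippocampus and 11 in layers 2 to 3, and edgeR called none in either, with 2 and 1 at an unadjusted p under 0.05. In the dentate gyrus Lhfpl3, a precursor gene at 60.1, 48.1, 22.4 and 20.0 CPM, was called (log2 fold change -1.40, adjusted p = 0.0387). Of the enzymes of cholesterol synthesis, which supply the main lipid of myelin, 18 of 21 were lower in hippocampus and 17 of 20 in layers 2 to 3, with medians of -0.15 and -0.20. EdgeR called none of these enzymes in either area, although 7 had an unadjusted p under 0.05 in each. Members were not tested against these lists.

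Markers of other cell types are given beside these results, and their part in them was not tested. The summed level of 15 neuronal markers in layers 2 to 3 was 12016, 12182, 12144 and 12045 CPM, and 8 of the 15 were lower in HF, with a median log2 fold change of -0.01. The summed level of 15 astrocyte markers there was 4932, 3878, 4140 and 3813 CPM, with overlapping diets. Of these, 14 were lower in HF and 1, Gfap, was called, with a median of -0.20. In hippocampus 12 of 15 astrocyte markers and 8 of 15 neuronal markers were lower, with medians of -0.15 and -0.02. Microglial and vessel markers in hippocampus were lower in 11 of 14 genes each, with medians of -0.13 and -0.15. EdgeR called none of these 4 lists in hippocampus, where 5 astrocyte, 3 neuronal, 0 microglial and 3 vessel markers had an unadjusted p under 0.05. Meningeal markers were lower there in 10 of 11 genes and choroid plexus markers in 7 of 11, with medians of -0.28 and -0.20. Of these, 1 meningeal and 0 choroid plexus markers had an unadjusted p under 0.05 and 0 were called by edgeR.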

How the data were processed

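The authors aligned probe reads to mm10 with Space Ranger 2.0.0 and deposited UMI counts per spot and feature, which summed to 34982061 to 90096877 per section after filtering. They also deposited spatial enrichment scores (Moran's I), used here as a description only. Their spatial analysis with Seurat was not used, and each sample's group was taken from its label. Spots with at least 500 UMIs and 250 features were retained (13452 of 13470). Clusters were rebuilt with scanpy 1.11.5 and leidenalg 0.10.2 (2000 variable genes, 30 components, 20 neighbours, resolution 1) without 41 features, among them the 9 members. A cluster was named only when at least 3 area markers were among its 50 leading genes. Spots of unnamed clusters count only in whole sections. Those of unnamed clusters within cortex or hippocampus also count in that area, but in no layer or field. Members and gene lists were chosen with earlier results of these data known.

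UMI counts were summed per area and section and tested with edgeR 4.0.16 (R 4.3.3), using TMM, filterByExpr and the quasi-likelihood test of diet over all features, with at least 50000 UMIs per area and section. The script was tested on simulated data. Genes named in the text were all 9 members, the 5 other features that followed their sum most closely, and genes of the wider lists that were called. 1 of these features is not reported here. Same-numbered sections did not deviate together (correlations of -0.165 to 0.01), so diets were not paired. Alternatives were DESeq2 1.42.0, library size alone, no filter on low counts, replicate blocks, each section left out, spots thinned to 5000 UMIs (12710 retained), spots away from white matter, clustering without the wider myelin lists, and resolution 2. Precision is limited by 2 sections per diet. Terms of diet by distance, the crossed block and the runs without HF replicate 1 were added after the data were seen. Gene positions are from GENCODE vM21.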

Additional observations from a re-analysis of the deposited data

Results flagged for a closer look

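The difference between diets differed between cortex far from white matter and cortex next to it in 8 of the 9 genes. The log2 fold change, HF over MF, at 10 or more array steps minus that at 1 to 2 steps was tested in edgeR with the section as a block and Benjamini-Hochberg adjustment over all features. It was -0.87 for Mbp (adjusted p = 2.7e-05), -0.96 for Mobp (2.7e-05), -0.86 for Mal (0.00247) and -0.76 for Cldn11 (0.00192). It was -0.89 for Opalin (0.0227), -0.62 for Cnp (0.0227), -0.58 for Mag (0.0241) and -0.66 for Mog (0.0455). For Ermn it was -1.18 and did not pass (0.0698). None of the 8 passed without HF replicate 2, and the far bin of MF replicate 2 held 35 spots. The contrast was added after the data were seen.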

How the results depend on the processing

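Called values: of the alternatives tried on genes called in an area, 413 left the call as it was, 145 ended it and 0 turned its direction. Of those on uncalled genes in whole sections, white matter, cortex, hippocampus, thalamus, striatum, layers 2 to 3 and cortex at 10 or more steps, 517 left it as it was, 75 brought a call and 12 turned the direction. Those 12 were fits with a section left out. In striatum these fits ran from -0.22 to 0.0052 for Mag and -0.15 to 0.083 for Mog, and in white matter from -0.23 to 0.13 for Cnp, -0.22 to 0.10 for Mag, -0.23 to 0.13 for Mbp, -0.17 to 0.14 for Mobp and -0.22 to 0.083 for Mog. Uncalled genes of hypothalamus, of the other layers and fields and of the nearer distance bins are outside this tally, and the median of the 9 genes turned with a section left out in hypothalamus (-0.19 to 0.18) and at 1 to 2 (-0.19 to 0.08) and 3 to 5 steps (-0.24 to 0.01). In hypothalamus the median also turned with resolution 2 (-0.13) and without the wider myelin lists (-0.14).

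With a section left out, the number of called members ran from 0 to 6 in whole sections (0 with all sections), 0 to 8 in cortex (1), 0 to 9 in hippocampus (7) and 0 to 6 in thalamus (0). It ran from 0 to 2 in hypothalamus (0), 0 to 1 in striatum (0), 11 to 36 in the layers and fields together (30 of 72) and 4 to 8 in the distance bins together (6). It ran from 0 to 8 for the area terms (0), for the joint distance terms (4) and for the single distance contrast (8). The number of all features called moved between these fits as well. A left-out fit leaves 1 section of a diet, assumed to vary like the others. Yet counts differed by a chi-square per feature of 31.2 between the HF sections and 8.20 between the MF sections.

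With no filter on low counts, 6 members were called in cortex, 4 in thalamus and 10 in the distance bins. The replicate block, which the labels' numbers do not show to be a true pairing, gave 4 calls in cortex, 0 in hippocampus, 9 in layers 2 to 3, 34 in the layers and fields and 9 in the distance bins, and the crossed block gave 2 in cortex, 5 in thalamus and 10 in the distance bins. DESeq2 gave 9 and thinning 18 calls in the layers and fields, and thinning left 5 for the single distance contrast. Spots away from white matter gave 3 in cortex. Clustering without the wider myelin lists gave 2 in cortex, 4 in hippocampus and 0 in the distance bins, where the farthest bin of MF replicate 2 held 14 spots. Resolution 2 gave 0 in cortex and 0 in the distance bins, where the farthest bin could not be fitted, nor could CA1 without spots next to white matter. The ratio of white matter over hippocampus was 5.07 with equal weight per spot. Where not stated by the construction of the alternative, the cause was not tested. The median over the 9 genes stayed below 0 under every alternative run in hippocampus (-0.68 to -0.48), layers 2 to 3 (-0.86 to -0.63) and cortex at 10 or more steps (-0.94 to -0.84). UMIs limit Ermn and Opalin most, with 8 and 9 UMIs in CA1 of HF replicate 1.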
